A study of Caenorhabditis elegans with 5 samples.

Results

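Insulin-like peptides are small secreted hormones, and *Caenorhabditis elegans* carries an unusually large family of them. The genes described here are those whose probe set has a single platform symbol of the form *ins* plus a number, or *daf-28*. They number 24 of the 17118 genes named on the array, and 25 probe sets measure them. The RefSeq gene table holds 39 protein-coding genes of this kind, and the other 15 were not analysed here.

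The peptides act on DAF-2, the insulin receptor of the worm. An active receptor signals through a phosphoinositide 3-kinase and AKT kinases to keep the transcription factor DAF-16 out of the nucleus. This pathway governs entry into the dauer larva, growth, fat storage, stress resistance and lifespan, and some peptides activate the receptor while others oppose it. Most are made in neurons and the intestine.

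Gene expression was measured on 5 Affymetrix arrays, 1 for each culture of 100000 wild-type worms (strain Bristol N2) of mixed stages. Every culture had spent 10 days at 20 °C in CeMM, a defined liquid medium. Both control cultures were kept at 1 G, the first at the operation site and the second at Tsukuba space center, and are named after these places. The others were a space flight culture in microgravity, a clinorotation culture with a randomised gravity vector, and a hypergravity culture whose labels give both 3 G and 10 G. The arrays came from single cultures, so a treated value has no replicate, and a control SD is given in log2 units over both controls (n = 2). In whole worms, fewer cells of a type and less RNA per cell cannot be told apart, and neither can a shift in the mix of stages.

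Signals have arbitrary units, and the arrays were brought to 1 distribution by quantile scaling. The files carry no detection calls, so the 40th percentile of all scaled signals, 24.9, stood in for background and is called the floor. The mean log2 signal over the arrays lay above it for 10075 named genes. As deposited, the 2 to 98% trimmed mean ran from 138.9 in the Tsukuba control to 217.38 in space flight. By this measure marker genes of the main tissues were present: 10 of 10 neuronal, 10 of 10 intestinal, 8 of 8 body wall muscle, 14 of 14 germ line, 8 of 9 measured hypodermal and 5 of 6 pharyngeal markers were above the floor. Of 17 measured sperm markers 13 were above it. The exceptions were *bli-1* in the hypodermis, *ceh-22* in the pharynx and *spe-9*, *spe-11*, *spe-38* and *fer-1* in sperm.

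Of the 24 insulin-like genes, 15 lay above background by their mean: *daf-28*, *ins-1*, *ins-4*, *ins-5*, *ins-6*, *ins-11*, *ins-17*, *ins-18*, *ins-22*, *ins-23*, *ins-24*, *ins-26*, *ins-30*, *ins-33* and *ins-35*. The same 15 stayed above the floor when any 1 array was left out of the mean. Nearest to the limit were *ins-26*, with a geometric mean of 29.1, on the upper side and *ins-7*, with 22.6, on the lower side. Of the remaining 9, 5 exceeded 24.9 on some arrays, namely *ins-2*, *ins-3*, *ins-7*, *ins-37* and *ins-39*. *ins-21*, *ins-31*, *ins-32* and *ins-34* were under the floor on all arrays, with geometric means of 12.9, 2.03, 2.17 and 4.39. By array, 17 of the 24 genes were above the floor in the operation-site control, 14 in the Tsukuba control, 16 in space flight, 15 in clinorotation and 13 in hypergravity. Over all probe sets, 39.95% to 40.03% of the signals of each array were under the floor. By their mean, 10075 of all 17118 named genes were above it.

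**Figure D1:**
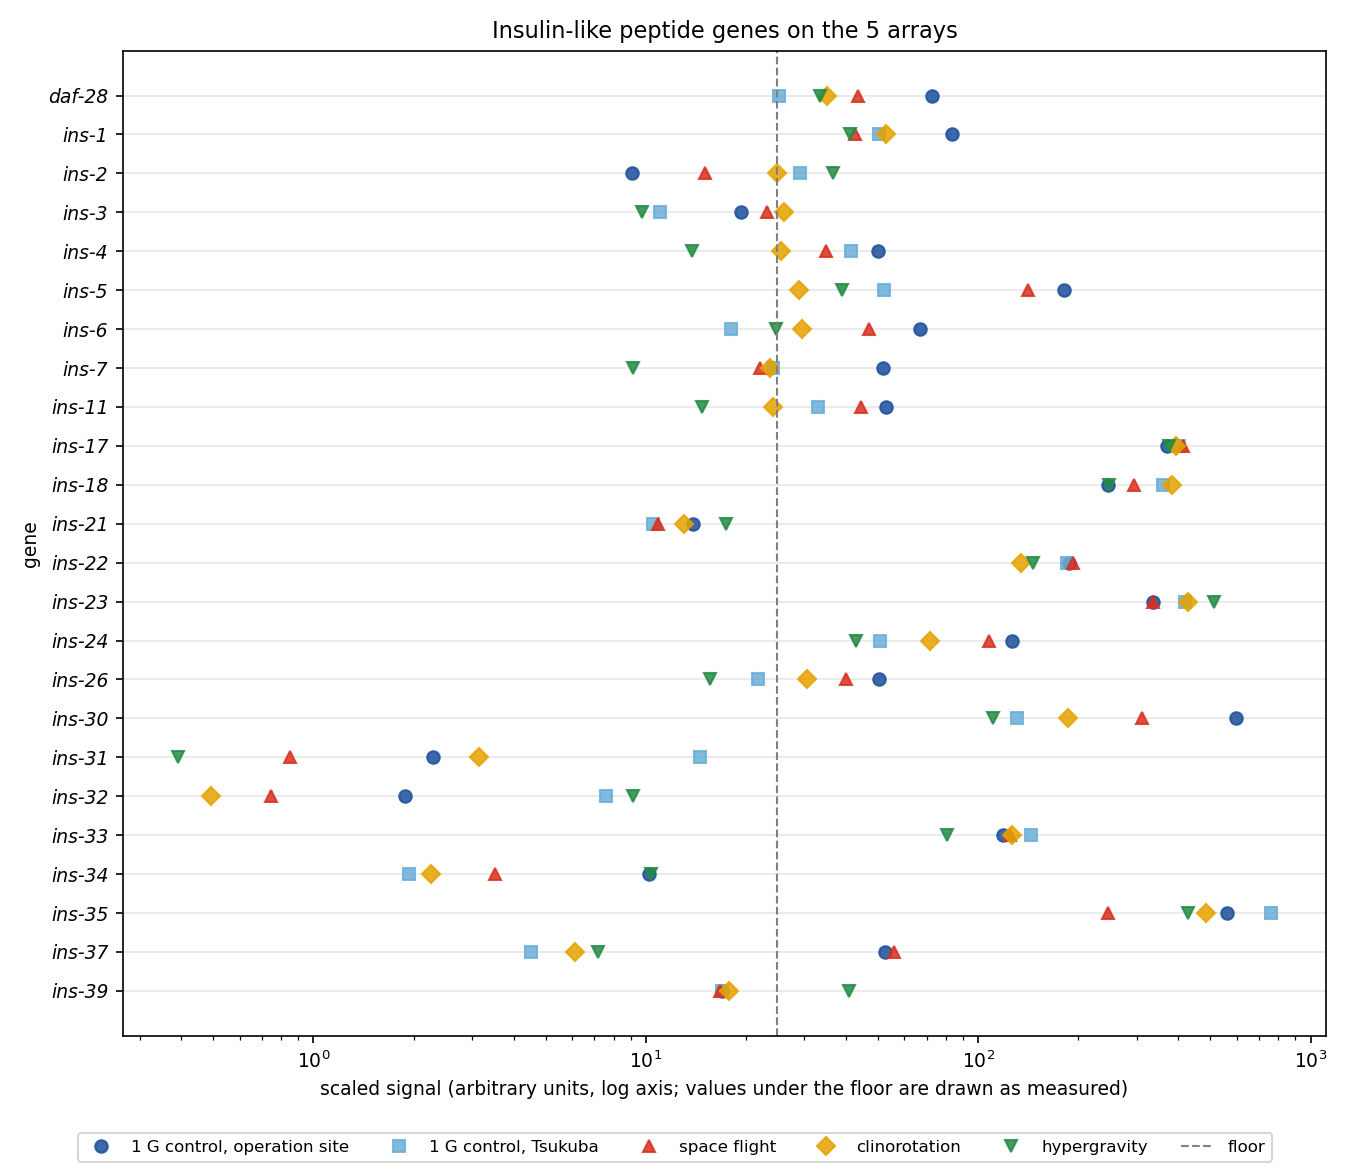
Scaled signal (arbitrary units, log axis) of the 24 insulin-like peptide genes, 1 row per gene and 1 symbol per array, with the floor of 24.9 as a dashed line. The symbols of *ins-17* lie on top of each other, those of *ins-30* spread from 111 to 597, and for *ins-35* space flight stands alone at the low end.

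The peptides that activate DAF-2 gave the one member that was at least 2-fold outside both controls. *ins-35*, an agonist made in the intestine that holds back dauer formation, read 559 at the operation site, 763 at Tsukuba, 245 in space flight, 486 in clinorotation and 428 in hypergravity. Both controls were the highest arrays and space flight was the lowest by a wide margin. Its space flight signal was 2.28-fold below the lower control, with a control SD of 0.32. The signals of clinorotation and hypergravity were 1.15-fold and 1.31-fold below the lower control. In space flight *ins-35* was the only 1 of 24 genes at least 2-fold below both controls, where 0.31% of all named genes were, and 0 of 24 were at least 2-fold above both (0.105% of all).

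This difference did not pass the test across genes. In limma, fitted to the 5 arrays with both controls as 1 group, *ins-35* in space flight had an unadjusted p of 0.0136 and a Benjamini-Hochberg adjusted p of 0.970. With the deposited signals unscaled, *ins-35* read 319 in space flight against 473 and 615, which is -0.57 (log2) from the lower control, while the median of all genes was 0.62 above the control mean. Intestinal markers moved less than *ins-35*, with a median of -0.13 from the control mean in space flight. Of them 5 of 10 were below both controls there, as were 29.5% of all genes above the floor. These markers summed to 12130 in space flight, where the controls gave 13510 and 13150. Their part in the *ins-35* value was not tested.

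*daf-28*, *ins-4* and *ins-6*, agonists that act together to prevent dauer entry, had their highest signal in the operation-site control. *daf-28*, made in sensory neurons, read 72.7 there, 25.2 at Tsukuba, 43.5 in space flight, 35.2 in clinorotation and 33.4 in hypergravity. All 3 treated arrays lay between the controls, whose SD was 1.08. *ins-6* read 67.0 at the operation site, 47.0 in space flight and 29.5 in clinorotation, and was under the floor at Tsukuba and in hypergravity. Of 5 markers of the ASI and ASJ sensory neurons, where *daf-28* is expressed, only *daf-7* was above the floor by its mean, and *str-3*, *gpa-4*, *trx-1* and *ssu-1* were not. *daf-7* read 144 at the operation site, 135 at Tsukuba, 95.1 in space flight, 115 in clinorotation and 91.4 in hypergravity.

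*ins-4* and *ins-35* were the 2 members below both controls in all 3 treated cultures. The share of all genes that did so was not computed, so the count has no background and is given as description only. Singly, 29.5% of all genes above the floor were below both in space flight, 27.7% in clinorotation and 32.7% in hypergravity. The 3 comparisons share both controls. *ins-4* read 50.1 at the operation site and 41.5 at Tsukuba, 34.8 in space flight and 25.6 in clinorotation, and was under the floor in hypergravity. The step below the lower control was 1.19-fold, 1.62-fold and at least 1.66-fold. Its limma p-values were 0.344, 0.0894 and 0.0803, and the adjusted ones were 0.970, 1.0 and 0.949.

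The remaining measured agonists were near or under background, and *ins-9*, also listed as an agonist, was not measured. *ins-7*, an intestinal and neuronal peptide whose own expression DAF-16 represses, was above the floor only in the operation-site control, at 51.6, at least 2.07-fold above the others. *ins-3*, a neuronal peptide, exceeded it only in clinorotation, at 26.1, and *ins-32* on no array.

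Among the antagonists, *ins-17* varied least of the 15 genes above the floor. Its signal was 369 at the operation site and 403 at Tsukuba, 414 in space flight, 393 in clinorotation and 376 in hypergravity. The highest array was 1.12-fold above the lowest. *ins-18* read 245 and 361 in the controls, 294 in space flight, 384 in clinorotation and 247 in hypergravity, with a control SD of 0.40. Only clinorotation was outside the controls, 1.06-fold above the higher one.

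*ins-1*, a neuronal antagonist that resembles human insulin and acts in learning, read 83.4 at the operation site, 50.2 at Tsukuba, 42.5 in space flight, 52.8 in clinorotation and 41.1 in hypergravity. Space flight and hypergravity were the lowest arrays, 1.18-fold and 1.22-fold below the lower control. Those steps are smaller than the control SD of 0.52, and neither passed limma (adjusted p = 0.970 and 0.949). The neuronal markers had a lower summed signal on the same arrays. It was 4710 in space flight and 4207 in hypergravity, against 6088 and 5861 in the controls and 6059 in clinorotation. Below both controls were 5 of 10 markers in space flight and 7 of 10 in hypergravity, where *unc-119* was above both. Of all genes above the floor, 29.5% and 32.7% were below both on these arrays. *egl-3* holds a large part of the sums, and its other probe set put hypergravity between the controls. The part of neuronal RNA in the *ins-1* values was not tested.

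Many members differed between the ground controls themselves. Of the 24 genes 8 were at least 2-fold higher at the operation site than at Tsukuba, where 2.79% of all named genes were, and 0 of 24 were at least 2-fold lower, against 2.43%. *ins-30* had the largest difference, 597 against 131 or 4.54-fold, followed by *ins-5* (181 against 52.0, 3.48-fold), *daf-28* (2.89-fold) and *ins-24* (126 against 50.8, 2.48-fold). For *ins-6*, *ins-37*, *ins-7* and *ins-26* the Tsukuba signal was under the floor, and the operation site was at least 2.69-fold, 2.10-fold, 2.07-fold and 2.01-fold higher. These are single arrays of single cultures, so no test was possible, and site, culture and array cannot be told apart. The treated arrays divided between the controls over all named genes as well. Space flight was 2-fold above or below the operation-site control for 0.368% and 0.742% of them, and Tsukuba for 2.78% and 3.51%. For clinorotation these shares were 2.4% and 2.99% against the operation site, and 0.193% and 0.134% against Tsukuba. For hypergravity they were 2.48% and 4.11%, and 0.438% and 0.935%.

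The 15 genes above the floor had a median difference of 0.69 (log2) between the controls, against 0.03 over all genes above it. Of them 10 were higher at the operation site, as were 52.6% of all genes above the floor, and 5 were lower, namely *ins-17*, *ins-18*, *ins-23*, *ins-33* and *ins-35*. None of those 5 differed by 2-fold. For 9 of the 15 the operation-site control was the highest of the 5 arrays, which held for 21.9% of all genes above the floor. Without scaling it was 5 of the 15 and 3.97% of all genes.

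**Figure D2:**
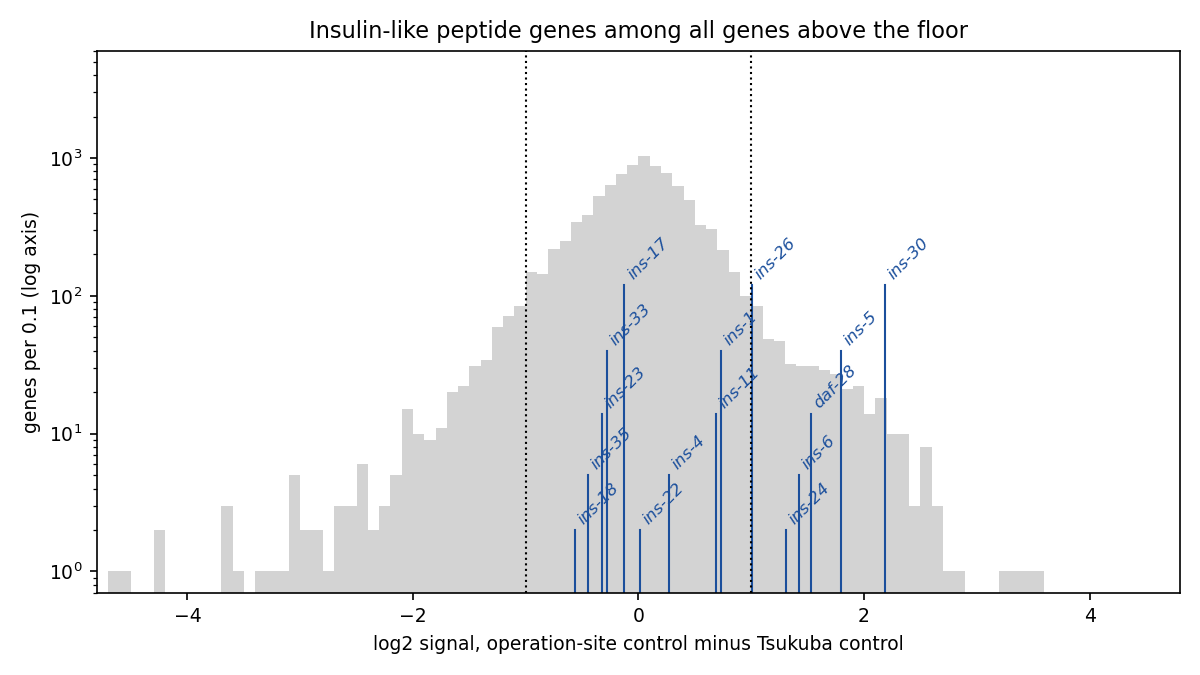
Difference in log2 signal between the 2 ground controls (operation site minus Tsukuba) for all 10075 genes above the floor, as a histogram in bins of 0.1 with a log count axis. Blue lines mark the 15 insulin-like peptide genes above the floor and dotted lines a 2-fold difference. The members reach from -0.56 for *ins-18* to 2.18 for *ins-30*, and those past 2-fold all lie on the operation-site side. The heights of the blue lines carry no value.

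Markers of other tissues differed between the same arrays. The 17 sperm markers were summed with genes under the floor set to it. The sums were 22580 at the operation site, 5644 at Tsukuba, 23070 in space flight, 4651 in clinorotation and 7033 in hypergravity. Genes of the *msp* family hold most of these sums, and their probe sets can share sequence with further transcripts, so they are not separate measurements. *spe-9* and *spe-38* were under the floor on all arrays. The 6 pharyngeal markers summed to 2427 at the operation site and to 993 to 1409 elsewhere. Most of these sums came from *myo-1*, *myo-2* and *tnc-2*, at 0.93, 1.70 and 1.16 (log2) from Tsukuba at the operation site. *pha-4* was at 0.31 and *pqn-8* at -0.14, and *ceh-22* was under the floor by its mean. All 14 germ line and oocyte markers were higher at the operation site than at Tsukuba, with a median difference of 0.25 (log2). Of the 10 neuronal markers 6 were higher there, from *sng-1* by 0.82 and *rab-3* by 0.66 to *unc-119* at -0.60, and their sums, mostly *egl-3* and *snb-1*, were 6088 and 5861. Intestinal markers summed to 13510 and 13150, with a median difference of 0.32. The part of these tissues in the insulin-like peptide values was not tested.

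Insulin-like genes that stand next to each other on a chromosome are shown together, since several are adjacent with no other coding gene between them. On chromosome I, *ins-24*, *ins-30* and *ins-26* follow each other. *ins-30* read 597 at the operation site, 131 at Tsukuba, 311 in space flight, 186 in clinorotation and 111 in hypergravity. *ins-24* read 126, 50.8, 107.9, 71.4 and 42.9 on the same arrays in that order. *ins-26* read 50.2 at the operation site, 40.03 in space flight and 30.5 in clinorotation, and was under the floor at Tsukuba and in hypergravity. All 3 genes were highest at the operation site, next highest in space flight and intermediate in clinorotation, with their lowest signals at Tsukuba and in hypergravity. The *ins-24* value comes from a probe set of the class that can share sequence with further transcripts. The other probe set of *ins-24* was under the floor on 4 of 5 arrays. It exceeded the floor only in hypergravity, at 29.3, where the probe set used was lowest.

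The neighbours on chromosome II, *ins-2* to *ins-6*, had differing orders of the arrays. *ins-5* read 181 at the operation site, 52.0 at Tsukuba, 141 in space flight, 28.9 in clinorotation and 38.9 in hypergravity. Clinorotation was 1.79-fold and hypergravity 1.34-fold below the lower control, and neither passed limma (adjusted p = 1.0 and 0.949). In clinorotation this was the largest step of any member, and it passed 2-fold when arrays were scaled by their trimmed means. *ins-6*, next to *ins-5*, was also highest on those arrays, the operation site and space flight, and *ins-4* was highest in both controls. *ins-2* was above the floor only in the Tsukuba control (29.2) and hypergravity (36.5).

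The neighbours *ins-21*, *ins-22* and *ins-23* on chromosome III varied less. *ins-22*, a peptide whose tagged form is used to follow dense core vesicles, read 187 and 185 in the controls, 193 in space flight, 135 in clinorotation and 146 in hypergravity. The controls differed by 1.01-fold, and clinorotation and hypergravity were 1.37-fold and 1.27-fold below the lower one. *ins-23* went the other way in hypergravity, at 511 against 335 and 418 in the controls, 1.22-fold above the higher one. It read 336 in space flight and 429 in clinorotation. *ins-21* was under the floor throughout.

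**Figure D3:**
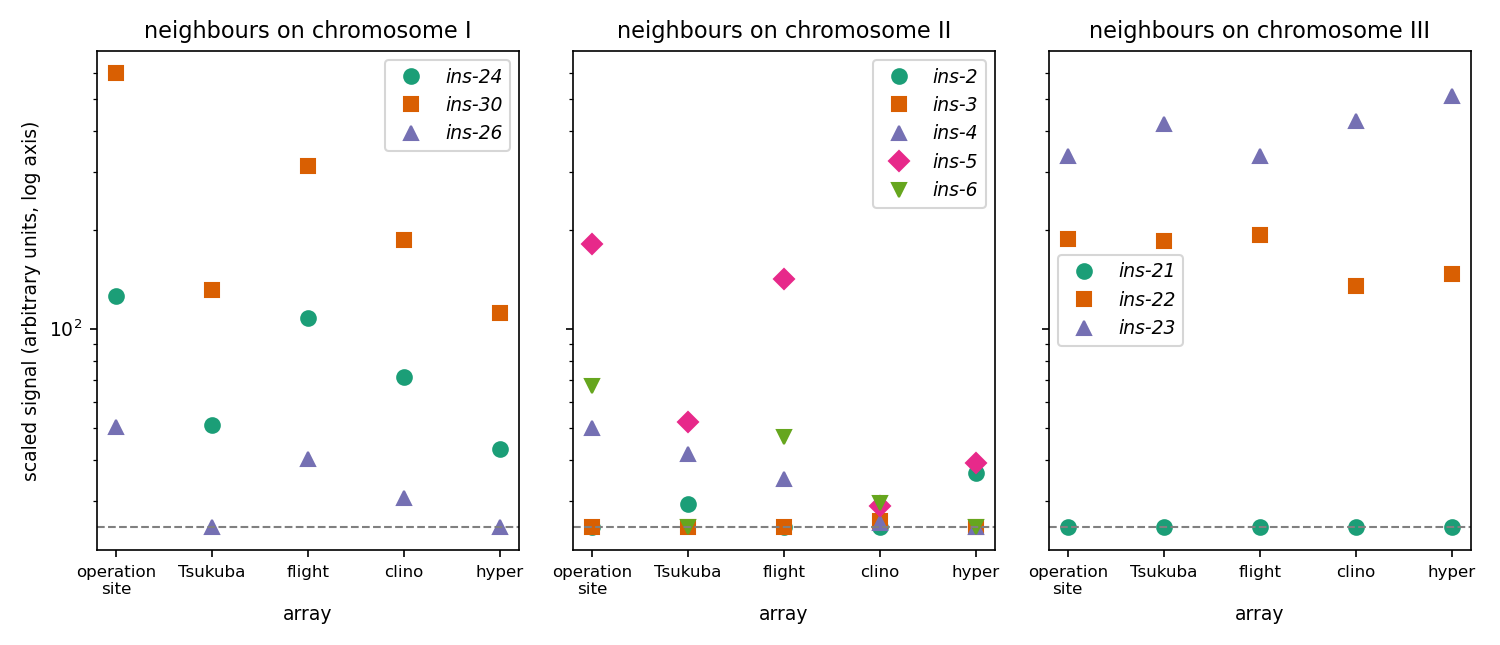
Scaled signal (arbitrary units, log axis) of insulin-like peptide genes that are neighbours on chromosomes I, II and III, with 1 point per gene and array. Values under the floor of 24.9 (dashed line) are drawn on it. The points of *ins-24*, *ins-30* and *ins-26* have the same order of arrays, except that *ins-26* is at the floor at Tsukuba and in hypergravity, and those of *ins-22* and *ins-23* stay within a narrow band.

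Some members outside these groups were seen on few arrays. *ins-37* read 52.3 at the operation site and 56.0 in space flight, and was under the floor elsewhere, where its unfloored signals were 4.52, 6.13 and 7.18 (Tsukuba, clinorotation, hypergravity). *ins-39* was above the floor only in hypergravity, at 40.8, with unfloored signals of 16.7 to 17.8 on the other arrays. That is at least 1.64-fold above both controls. *ins-11*, an intestinal peptide induced by pathogens, read 52.9 and 32.9 in the controls and 44.4 in space flight, and was under the floor in clinorotation and hypergravity. Its probe set is of the same class as that of *ins-24*. *ins-33* read 118.9 and 144 in the controls, 125 in space flight, 126 in clinorotation and 80.4 in hypergravity, which was 1.48-fold below the lower control (adjusted p = 0.949, limma).

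Against both controls, the treated cultures can be compared by how many of the 15 genes above the floor lay outside. In space flight, 2 of 15 were above both controls (*ins-17* and *ins-22*) and 3 below (*ins-1*, *ins-4* and *ins-35*), against 36.3% and 29.5% of all genes above the floor. The other 10 lay between the controls. The median difference from the control mean was 0.05 (log2), beside 0.03 over all genes. Taking each control alone, the median was -0.33 against the operation site and 0.06 against Tsukuba. Above the Tsukuba control alone by 2-fold were *ins-5*, *ins-24*, *ins-30* and *ins-37* (2.78% of all named genes), and below it *ins-35* (3.51%). Below the operation-site control alone were *ins-7* and *ins-35* (0.742%).

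In clinorotation, 2 of 15 were above both controls (*ins-18* and *ins-23*) and 5 below (*ins-4*, *ins-5*, *ins-11*, *ins-22* and *ins-35*), against 28.4% and 27.7% of all genes above the floor. None of the 24 was at least 2-fold above or below both, where 0.0701% and 0.0175% of all named genes were. The median difference was -0.29 from the control mean, beside 0.01 over all genes, -0.72 against the operation site and 0.04 against Tsukuba. At least 2-fold below the operation-site control alone were 7 of 24 members, namely *daf-28*, *ins-5*, *ins-6*, *ins-7*, *ins-11*, *ins-30* and *ins-37* (2.99% of all named genes). Below the Tsukuba control alone by 2-fold were 0 of 24 (0.134%).

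In hypergravity 9 of 15 were below both controls, where 32.7% of all genes above the floor were. They were *ins-1*, *ins-4*, *ins-5*, *ins-11*, *ins-22*, *ins-24*, *ins-30*, *ins-33* and *ins-35*, and *ins-23* alone was above both (33.2% of all genes). The steps were small: *ins-4* was at least 1.66-fold and *ins-33* 1.48-fold below the lower control, and the other 7 were 1.18-fold to 1.34-fold below, with *ins-11* at the floor. The other probe set of *ins-24* was instead highest in hypergravity, at 29.3. None of the 24 was at least 2-fold above or below both controls, against 0.164% and 0.391% of all named genes. The median was -0.66 from the control mean, beside 0.00 over all genes, with -1.01 against the operation site and -0.29 against Tsukuba. Against the operation site alone 11 of 24 were at least 2-fold lower (4.11% of all named genes). Against Tsukuba alone 0 of 24 were (0.935%). Without scaling 4 of 15 were below both, beside 9.86% of all genes, and clinorotation also had 4 of 15, beside 6.66%. Of the 10 neuronal markers 7 were below both controls in hypergravity, their median being -0.53. All 5 yolk genes and 11 of 14 germ line and oocyte markers were above both, with medians of 0.76 and 0.38. In space flight 13 of the 14 germ line and oocyte markers were also above both, with a median of 0.37. Other markers below both in hypergravity were 4 of 5 pharyngeal, 5 of 8 body wall muscle, 5 of 10 intestinal and 4 of 8 hypodermal ones. Above both were 0, 0, 1 and 2 of them. The part of these tissues in the counts was not tested.

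No insulin-like gene passed limma in any condition at an adjusted p under 0.05, and neither did any other gene (0% of 10075 genes in space flight, 0% in clinorotation and 0% in hypergravity). At an unadjusted p under 0.05 there were 144, 32 and 248 genes, and of the 15 insulin-like genes fitted 1, 0 and 0. With only the controls as replicates, the fit had 1 residual degree of freedom and took each treated array to vary like them. The 3 comparisons share both controls, so that their values are not separate measurements.

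**Figure D4:**
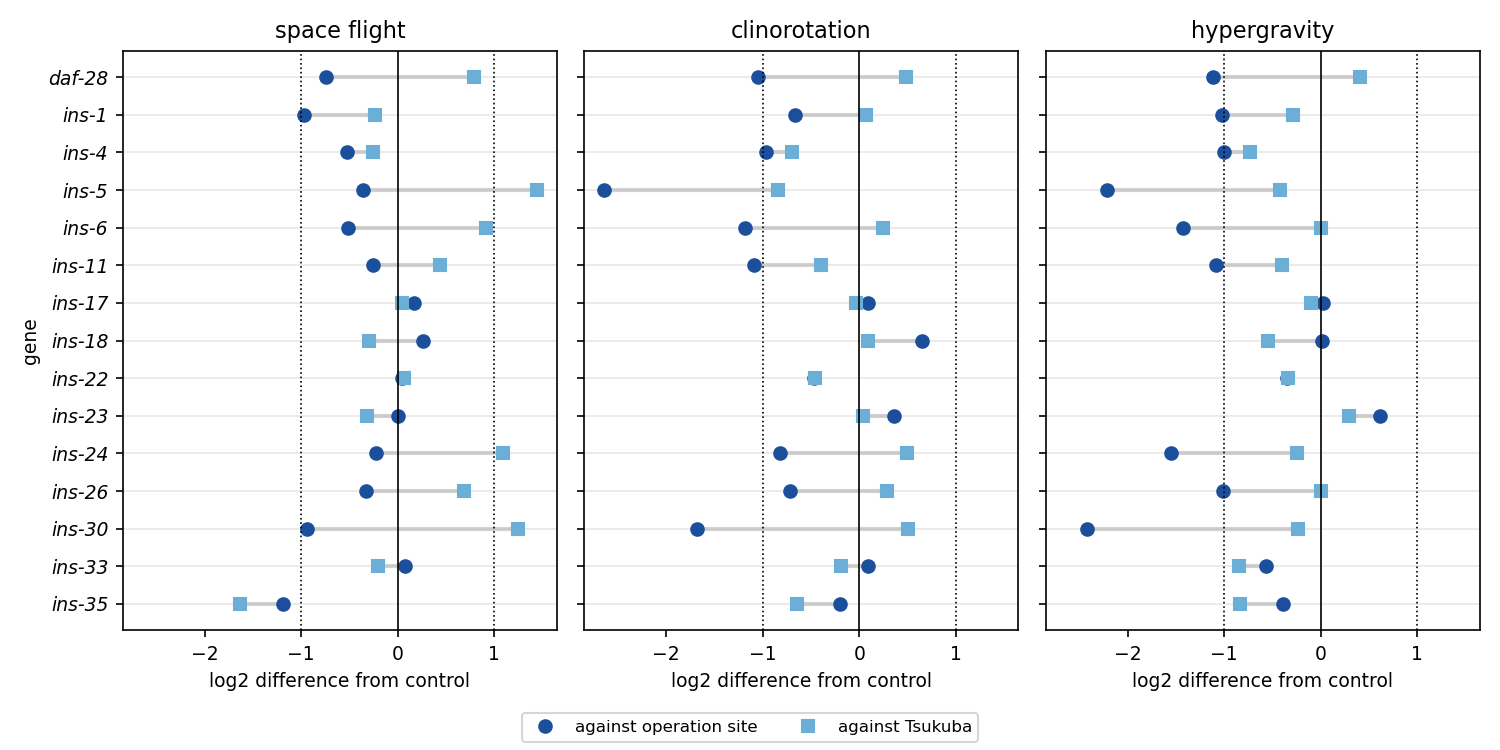
Log2 difference of each treated array from the operation-site control (dark circles) and from the Tsukuba control (light squares) for the 15 insulin-like peptide genes above the floor, with grey lines joining the pair and dotted lines at 2-fold. In space flight only *ins-35* has both symbols past -1, and in hypergravity 9 genes have both symbols left of 0.

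The machinery that makes and releases the peptides was compared next. Of 12 genes for processing and secretion 11 were above the floor, all but *unc-31*. None was 2-fold beyond both controls in any treated culture. In space flight 1 was above and 6 were below both controls, in clinorotation 2 and 5, and in hypergravity 1 and 8, with medians of -0.09, -0.02 and -0.32 from the control mean. Over all genes above the floor the shares were those given for the peptides, 36.3% and 29.5%, 28.4% and 27.7%, and 33.2% and 32.7%. The neuronal markers, a list that also holds *egl-3*, had 0 above and 5 of 10 below in space flight, 1 and 3 in clinorotation, and 1 and 7 in hypergravity, and their part was not tested. *egl-3*, a convertase that cuts peptide precursors, read 3044 and 2860 in the controls, 2149 in space flight, 2908 in clinorotation and 1764 in hypergravity. Its other probe set also put space flight lowest, but hypergravity between the controls. *egl-21*, the carboxypeptidase that trims the cut peptides, read 2394 and 2234 in the controls and 2001 to 2228 in the treated cultures. *sbt-1*, a chaperone of the convertase, read 3216 and 2603 in the controls and 2251 to 2559 in the treated ones.

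*kpc-1*, a furin-like convertase, was chosen after its values were seen. It read 428 at the operation site, 1065 at Tsukuba, 390 in space flight, 1093 in clinorotation and 903 in hypergravity. All 4 of its probe sets had space flight as the lowest array and the operation-site control next to it. The arrays low in *kpc-1* were those high in *ins-30*, *ins-5* and *ins-6*, a description over 5 arrays with no test.

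The receptor pathway was compared in the same way. *daf-2*, the receptor gene, was under the floor by its mean on each of its 4 probe sets, and the brightest of them exceeded 24.9 only in the Tsukuba control (31.9) and clinorotation (29.5). The other 12 genes of the list were above the floor, and none was 2-fold beyond both controls. In space flight 3 were above and 3 below both controls, in clinorotation 5 and 2, and in hypergravity 5 and 4. Over all genes above the floor the shares were again 36.3% and 29.5%, 28.4% and 27.7%, and 33.2% and 32.7%. The medians of the list were -0.05, 0.10 and -0.08 from the control mean.

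*daf-16* read 524 and 737 in the controls, 528 in space flight, 713 in clinorotation and 544 in hypergravity, all within the range of the controls. Of its 3 other probe sets, 1 put clinorotation above both controls (592 against 495 and 527) and hypergravity below both (437). *ftt-2* and *par-5*, the 14-3-3 proteins that hold DAF-16 in the cytoplasm, read 2894 and 2348 and 3293 and 3177 in the controls. In the treated cultures *ftt-2* read 2129 to 2671 and *par-5* 3076 to 3754. The other probe sets of *ftt-2* and *par-5* gave the arrays in other orders.

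Genes that DAF-16 activates are a readout of the pathway. Of 14, 12 were measured, all above the floor, and none was 2-fold beyond both controls. In space flight 4 were above and 1 below both controls, in clinorotation 1 and 4, and in hypergravity 2 and 4. Shares over all genes above the floor were 36.3% and 29.5%, 28.4% and 27.7%, and 33.2% and 32.7%, in the same order. The medians of the list were 0.19, -0.15 and -0.06 from the control mean. *mtl-1*, a metallothionein, read 5933 and 4407 in the controls, 7322 in space flight, 5018 in clinorotation and 4744 in hypergravity. *dod-6* read 3841 at the operation site, 1610 at Tsukuba, 5136 in space flight, 1524 in clinorotation and 1640 in hypergravity. *hsp-16.2*, a small heat shock gene named after its values were seen, split the arrays the other way, with 270 at the operation site, 6148 at Tsukuba, 563 in space flight, 5608 in clinorotation and 5589 in hypergravity. *hsp-12.6* also had its lowest signal at the operation site, -0.80 (log2) from Tsukuba. Another small heat shock gene, *sip-1*, read 8837 and 7276 in the controls and 7720 to 9308 in the treated cultures. *sod-3*, a superoxide dismutase widely used as a reporter of DAF-16 activity, was chosen after its values were seen. It read 835 and 662 in the controls, 902 in space flight, 561 in clinorotation and 339 in hypergravity, -0.96 (log2) from the lower control. The genes repressed through DAF-16, *dod-17*, *dod-22* and *dod-24*, were under the floor on all arrays.

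**Figure D5:**
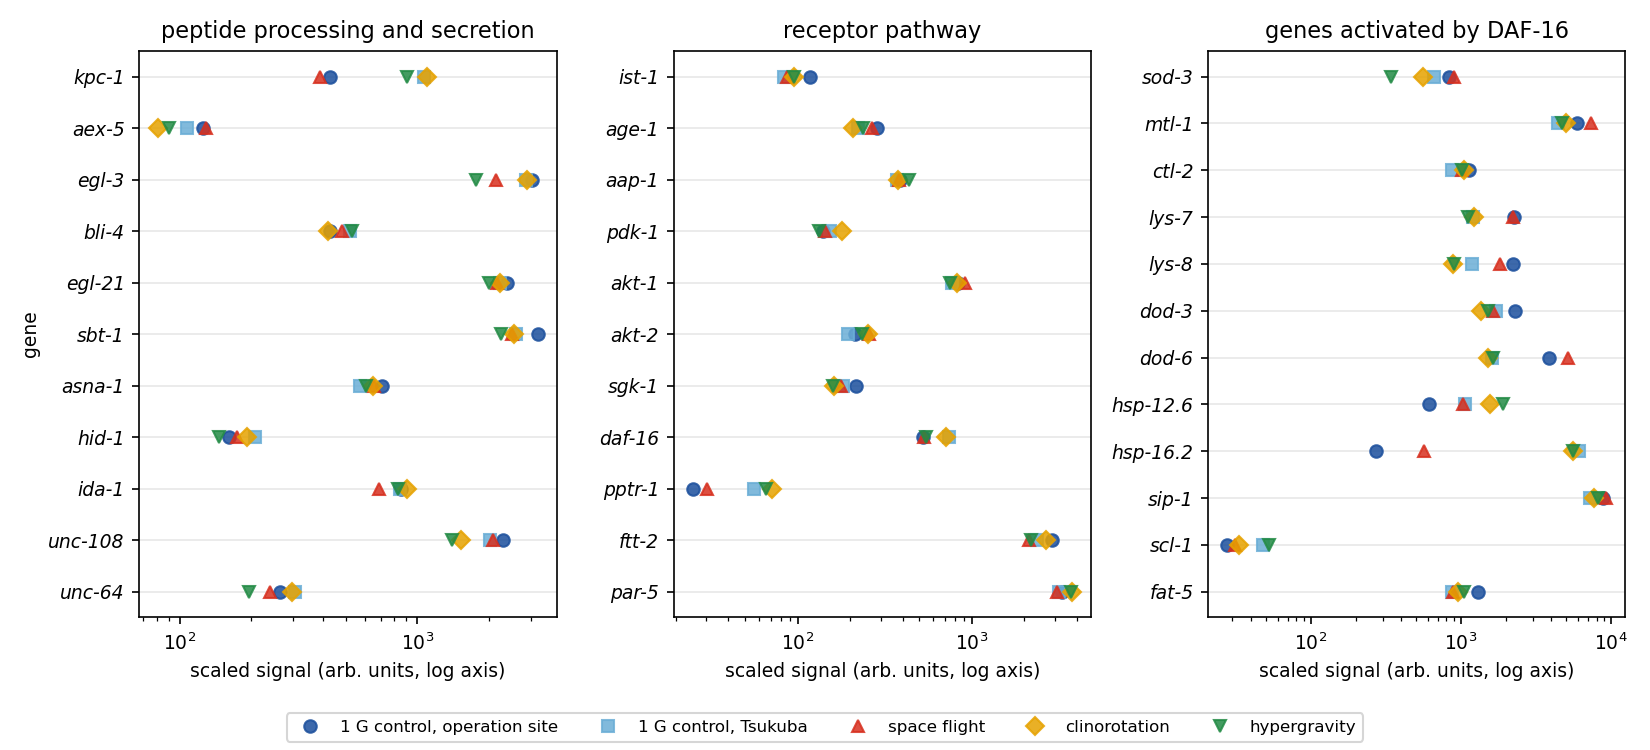
Scaled signal (arbitrary units, log axis) of pathway genes above the floor, all but 1 of those in the 3 lists, with 1 row per gene and 1 symbol per array, for peptide processing and secretion, the receptor pathway and genes activated by DAF-16. *kpc-1* and *dod-6* split the arrays into the same groups in opposite directions, while most genes of the receptor pathway lie close together.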

How the data were processed

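Per the labels' protocols, frozen worms gave ISOGEN-extracted total RNA, of which 15 µg was turned into biotin-labelled cRNA. The authors deposited intensities, 1 linear signal per probe set; the sources used here do not say how probe cells were summarised.

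Names came from GEO's annotation of the platform. By Entrez identifier, all 24 symbols matched those of RefSeq (assembly WBcel235), which also gave the chromosomes and neighbours. No member was named by a probe set with several symbols. Of several probe sets per gene the one with the highest mean was used.

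Log2 signals were quantile normalized (limma 3.58.1, R 4.3.3), floored at the 40th percentile and, for 10075 genes whose mean before flooring exceeded it, fitted with lmFit and eBayes with a trend, two-sided, all 5 arrays in 1 fit, Benjamini-Hochberg adjusted over these genes. P-values measure only the spread between 2 control cultures. The number of arrays limits the precision. A 2-fold call needs a floored signal 2-fold beyond both controls, with all 17118 named genes as background. Computations were tested on simulated data. Alternatives were other scalings, floors, probe sets and controls; those for the counts above or below both controls were chosen after seeing the data.

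The members, gene lists and the naming rule were chosen with earlier results of these data known. All members were named, and those 2-fold outside or between the controls, the 12 with the highest mean, the agonists and the antagonists got their values on every array. Each pathway list gave genes 2-fold outside both controls and up to 3 with the highest mean, with *daf-2* and *daf-16* always. The gene of the receptor pathway that this rule also names is not reported here, though the list's counts include it. The grouping by number of cysteines planned for the peptides was not made, since no protein sequence was used here.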

Additional observations from a re-analysis of the deposited data

How the results depend on the processing

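The number of members 2-fold outside both controls, 1 in space flight and 0 in clinorotation and hypergravity, was unchanged with a 60th percentile floor, log2(signal + 16), the mean of all probe sets or plain-suffix probe sets. Without scaling between arrays the number was 0 in space flight, and with trimmed mean scaling it was 1 in clinorotation (*ins-5*). With a floor at the 20th percentile it was 4 in hypergravity (*ins-4*, *ins-7*, *ins-11* and *ins-39*). The shares of all named genes called under these settings were not computed, so these counts have no background. Leaving out 1 control gave 2 to 5 in space flight, 0 to 7 in clinorotation and 0 to 11 in hypergravity, with the lowest count in clinorotation and hypergravity against Tsukuba alone. The median of the members in space flight was 0.58 without scaling, beside 0.62 over all genes. The members 2-fold apart between the controls were 5 without scaling (*daf-28*, *ins-5*, *ins-6*, *ins-24* and *ins-30*), 2 with a floor at the 60th percentile (*ins-5* and *ins-30*), and 6 to 9 under the other alternatives. *ins-24* dropped out with the mean of its probe sets or with the plain-suffix one. For these counts too, the shares of all named genes were not computed. With the floor at the 60th percentile 7 members were above it, and at the 20th percentile 21.

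In alternatives chosen after seeing the data, the counts without scaling were 9 above and 1 below both controls in space flight (80.9% and 4.55% of all genes above the floor), 4 and 4 in clinorotation (65.2% and 6.66%), and 2 and 4 in hypergravity (66.4% and 9.86%), and the operation site was highest for 5 members (3.97%). Against a single control they ranged from 5 to 9 above and 6 to 10 below in space flight, 4 to 8 above and 7 to 11 below in clinorotation, and 2 to 3 above and 11 to 12 below in hypergravity, where 45.4% to 54.1% of all genes lay in either direction. Without the filter on low signals limma called 0 members in space flight, 1 in clinorotation (*ins-3*, adjusted p = 0.0143) and 1 in hypergravity (*ins-39*, adjusted p = 0.00284), beside 1.12%, 0.882% and 1.56% of all named genes. Both members had the controls at the floor, where they have no spread. Of 668 values of single members under the alternatives, 575 did not move or moved by less than the control SD, 93 moved by more, and 0 of those called changed sign. The value is the distance to the nearer control, which is 0 for a gene between the controls or at the floor throughout. Many values were therefore 0 under both settings, and a wide control SD leaves room for large moves. The tally is thus no measure of robustness. limma could not be run with a control left out, since no residual degree of freedom remains. No paired analysis was possible, since each treated culture had 1 array and the labels pair none of them with a control. Signals near the floor limit *ins-26*, *ins-4*, *ins-11* and *ins-6* most.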
